A study of Mus musculus with 4 samples.

Results

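The stretch of mouse chromosome 7 that holds Ppfia1, Fadd, Ano1 and Ccnd1, 800 kb from 151600001 to 152400000 on build mm9, was described by its cover with trimethylation of histone H3 at lysine 36 (H3K36me3). Its members are the 4 genes and all islands, the broad enriched regions listed by the authors, that overlap the stretch. These were 33 of 58326 islands in the wild-type list and 33 of 69798 in the mutant list. The stretch was chosen by measured values, the island cover of its parts, which differed between the 2 libraries, so the cover differences below are a description of these libraries, with no test. The name of the stretch includes Ccnd1, but neither list held an island over the Ccnd1 body.

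H3K36me3 was mapped by chromatin immunoprecipitation and sequencing in myocytes of FVB mice. Both groups were skeletal muscle myoblasts taken on postnatal day 4, grown for 5 to 10 passages in cosmic calf serum with fetal growth factor, and collected 24 hours after the growth factors were withdrawn, when they form myotubes. One group was wild type and the other carried a deletion of a muscle-specific H19/Igf2 enhancer. Each genotype was 1 cell line with 1 H3K36me3 library, so genotype, line and library cannot be told apart, no replicate spread exists and no p-value is given. The 2 input DNA libraries were not analysed here, and the cell type was not tested against marker genes, because no mm9 annotation was used.

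H3K36me3 is laid down behind elongating RNA polymerase II by SETD2, and it is known to mark the bodies of transcribed genes, usually more towards their ends than at their starts. Ppfia1 encodes liprin-alpha-1, a scaffold protein of focal adhesions. Fadd encodes the adaptor that links death receptors to caspase-8. Ano1 encodes anoctamin-1, a calcium-activated chloride channel. Ccnd1 encodes cyclin D1, the partner of CDK4 and CDK6 in G1 phase, whose level is known to drop when myoblasts leave the cell cycle.

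The RefSeq promoter table (GRCm38.p6) held 3 of the 4 genes, Ppfia1, Fadd and Ano1, all on the minus strand. The 250 bases before their starts are shown because no island reached any of these starts in either library, although the bodies behind them differed widely in cover. They lie at chr7:144553730-144553979 for Ppfia1, at chr7:144582442-144582691 for Fadd and at chr7:144738574-144738823 for Ano1. Capitals mark each match to GGGCGG or its reverse complement CCGCCC, a GC box, overlapping matches included.
Ppfia1: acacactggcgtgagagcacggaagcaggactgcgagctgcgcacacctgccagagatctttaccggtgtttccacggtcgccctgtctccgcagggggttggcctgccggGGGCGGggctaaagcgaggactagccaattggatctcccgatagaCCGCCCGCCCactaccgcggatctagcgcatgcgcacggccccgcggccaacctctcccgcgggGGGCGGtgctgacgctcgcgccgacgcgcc
Fadd: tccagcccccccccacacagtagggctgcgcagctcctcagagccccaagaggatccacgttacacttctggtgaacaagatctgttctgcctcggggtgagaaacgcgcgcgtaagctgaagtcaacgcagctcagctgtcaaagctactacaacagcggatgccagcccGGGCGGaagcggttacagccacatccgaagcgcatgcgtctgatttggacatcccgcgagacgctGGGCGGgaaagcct
Ano1: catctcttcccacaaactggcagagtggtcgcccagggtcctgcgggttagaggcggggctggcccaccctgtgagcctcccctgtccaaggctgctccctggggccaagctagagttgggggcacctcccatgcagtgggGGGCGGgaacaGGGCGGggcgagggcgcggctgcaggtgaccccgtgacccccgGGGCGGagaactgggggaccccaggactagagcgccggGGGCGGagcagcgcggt
Ppfia1 had 4 matches, Fadd 2 and Ano1 4, and 32.7% of the 32851 promoters in the table had at least 1 in the same 250 bases. The GC content was 69.2% for Ppfia1, 60.4% for Fadd and 72.0% for Ano1, against a median of 52.4% over the table, and the number of CpG dinucleotides was 30, 19 and 16 against a median of 6. A match is a description of letters and not of a bound site. With genes placed on mm9 by the fixed offset of 7185905 bases from GRCm38 that came with the definition of the stretch, the nearest island to the Ppfia1 start lay 2.03 kb inside the gene in wild-type cells and 1.23 kb inside it in mutant cells. For Fadd the nearest island was 30.7 kb away in wild-type cells and 8.26 kb away in mutant cells. For Ano1 it was 41.7 kb and 41.5 kb away, so the marked part of Ano1 ended far from this start in both libraries. The start that the table gives for Ano1 lies inside the outer bound of the gene, and the offset was not checked against an mm9 annotation.

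Over the whole stretch the 2 libraries had similar cover. Islands took up 170.8 kb, or 21.4%, in wild-type cells and 156.2 kb, or 19.5%, in mutant cells. Of this, 117.8 kb was shared, which is 69.0% of the wild-type and 75.4% of the mutant cover. Within the stretch, the Ppfia1 body was covered much alike, and the part before it somewhat more in the wild type. Ano1 was covered more in the mutant, and the part past Ccnd1 was covered more in the wild type. The direction for the stretch as a whole was not stable: with only the higher-scoring 50% of each list, the cover came to 15.0% in wild-type cells and 15.9% in mutant cells.

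Counted over the whole stretch, 10 of 33 wild-type islands had no counterpart, meaning no base covered in the other list, or 30.3% (exact Clopper-Pearson 95% interval 15.6% to 48.7%), against 18.0% in the full list. In the mutant it was 9 of 33, or 27.3% (13.3% to 45.5%), against 25.7%. The intervals cover counting error only and take neighbouring islands as independent. The stretch was chosen by a contrast between these lists, so nothing is read from the shares of the full lists. All 10 of the wild-type islands lay outside the Ppfia1 and Ano1 bodies, with 8 past Ccnd1, 1 before Ppfia1 and 1 between Ano1 and Ccnd1. Of the 9 mutant ones, 6 were over Ano1 and 3 past Ccnd1. The bounds of the stretch fell in gaps: the nearest islands outside it were 62 kb below and 12.2 kb above in the wild type, and 75 kb below and 6.20 kb above in the mutant.

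**Figure D1:**
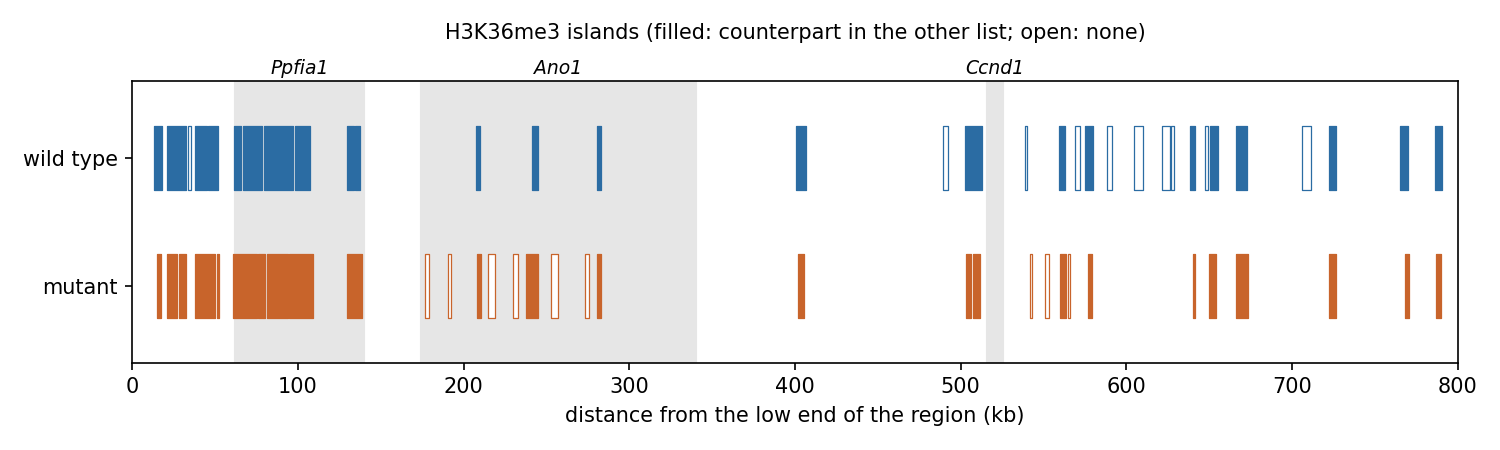
Islands of the wild-type and mutant H3K36me3 lists along the stretch, with the distance from its low end in kb on the x axis and the Ppfia1, Ano1 and Ccnd1 bodies in grey. Filled bars had a counterpart in the other list and open bars had none; the Ano1 body holds 6 open mutant bars, the part past Ccnd1 holds 8 open wild-type bars, and no bar lies over Ccnd1.

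**Figure D2:**
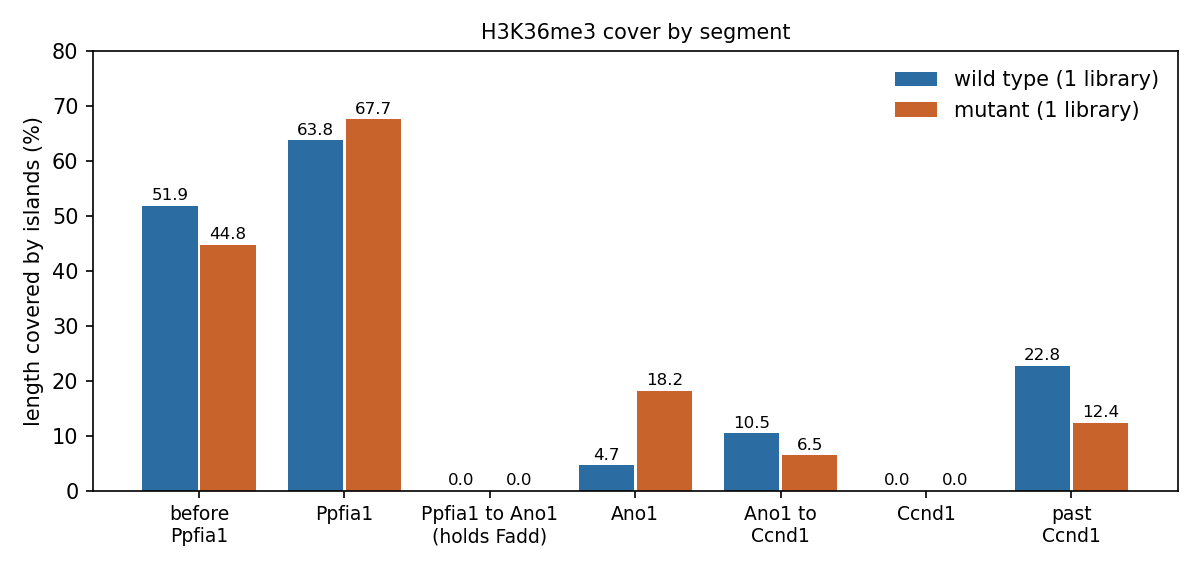
Percentage of each of the segments covered by islands (y axis) in the wild-type and the mutant library, 1 library each and hence without error bars. Ppfia1 stands at 63.8% and 67.7%, Ano1 at 4.70% and 18.2%, and Ccnd1 and the segment that holds Fadd at 0% in both.

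Ppfia1 was the most covered of the 4 genes in both libraries. On mm9 its body runs from about 151662000 to 151740000 (78 kb). Islands covered 49.8 kb of it, or 63.8%, in wild-type cells and 52.8 kb, or 67.7%, in mutant cells. The libraries shared 46.6 kb, 93.6% of the wild-type and 88.3% of the mutant cover of the gene. All 6 wild-type islands and all 5 mutant islands over Ppfia1 had a counterpart. The longest wild-type island of the stretch lay here, from 151679201 to 151697200 (18.0 kb), and 88.9% of it was covered in the mutant.

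The cover of Ppfia1 was denser towards the end of the gene. With the body cut into 4 equal parts of 19.5 kb, ordered from the transcription start, wild-type cover was 37.9%, 30.8%, 95.9% and 90.8%. In the mutant it was 45.1%, 41.0%, 95.9% and 88.7%. In both libraries the 2 parts nearest the end were thus nearly filled, and those nearest the start were covered to less than 50%. The island nearest the start was also split differently: it was 2 islands in the wild type, 151729401 to 151733600 and 151734401 to 151737600, and 1 island in the mutant, 151729601 to 151738400 (8.80 kb).

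The islands over Ppfia1 ranked high in their own lists by summed score. A score in these lists sums evidence over the windows of an island and grows with depth and length, so it is used to rank islands within a list and, in one setting below, to give both lists a common lowest score. The median island over Ppfia1 scored above 81.2% of all islands in wild-type cells and above 91.5% in mutant cells. These islands were long, with a median of 6.8 kb and 12.8 kb against 3800 bp and 3000 bp in the full lists. By score per window, the score divided by the number of windows, the median was at the 63.4th and the 47.5th percentile. Among these islands, 2 scored below the list medians. They were the wild-type island at 151729401, at the 27.8th percentile by score, and the mutant island at 151676001 to 151679800, at the 36.6th.

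Fadd lay in a stretch with no islands. The definition of the members gives no mm9 position for Fadd, and the gene order places it between Ppfia1 and Ano1. That segment, 34 kb from 151740001 to 151774000, was covered to 0% in wild-type cells and to 0% in mutant cells. Placed by the offset, the 4.12 kb of Fadd lie inside this segment, so their 0% in both libraries follows from it. An empty list shows that no island was called there, and not that the mark is absent.

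Ano1 was thinly covered in wild-type cells and more widely in mutant cells. Its body runs from about 151774000 to 151940000 (166 kb). Islands covered 7.80 kb, or 4.70%, in wild-type cells and 30.2 kb, or 18.2%, in mutant cells, which is 3.87 times as much. Of the wild-type cover, 97.4% was also covered in the mutant, but only 25.2% of the mutant cover was covered in the wild type. The mutant thus held nearly all of the wild-type cover and more besides. For scale, the genome was tiled in lengths of 166 kb, and of 7296 tiles covered to at least 5% in a list, 5.69% had at least 2 times as much cover in the mutant and 9.88% had at least 2 times as much in the wild type. This contrast chose the stretch, so nothing is read from its place in that background.

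The 3 wild-type islands over Ano1 each had a counterpart. The first, from 151807601 to 151809800, faced a mutant island from 151807801 to 151810600. The second, from 151841201 to 151844600 (3.40 kb), lay within a mutant island of 7.60 kb from 151837401 to 151845000. The third, from 151880601 to 151882800, faced a mutant island that began at the same base and ended at 151883000. In summed length these islands took 7.80 kb in wild-type cells and 12.8 kb in mutant cells, so the places matched and the mutant islands were longer.

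The other 6 mutant islands over Ano1 had no counterpart and summed to 17.4 kb. They spanned 151776601 to 151779200, 151790601 to 151792400, 151815001 to 151818800, 151829601 to 151832600, 151852801 to 151856800 and 151873201 to 151875400. Across the whole lists, 25.7% of mutant and 18.0% of wild-type islands had no counterpart. Of these 6 islands, 2 ranked above the middle of the mutant list, those at 151829601 and 151852801, at the 65.2nd and 65.9th percentiles. The other 4 ranked between the 13.2nd and the 31.6th.

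Part of the Ano1 difference lay in islands that scored lower than any in the wild-type list. The wild-type list had a lowest score of 30.3 and the mutant list one of 22.6, and 3 of the 6 mutant islands without a counterpart scored below 30.3 (27.2, 28.2 and 29.5). A common limit of 30.3 removes islands from the mutant list alone, so it could only narrow this difference. With that limit, Ano1 cover was 4.70% in wild-type cells and 13.5% in mutant cells. With the higher-scoring 50% of each list it was 2.05% and 10.5%. The order of the libraries held in these settings, and the part that depth and calling limits play in the difference was not tested.

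Along Ano1 the cover lay in the middle and the end. In 4 equal parts of 41.5 kb from the start, wild-type cover was 0%, 5.30%, 8.19% and 5.30%. Mutant cover was 0%, 11.1%, 43.1% and 18.6%. The part at the start was empty in both libraries, and the third part held the widest gap, 34.9 percentage points. Even there the mutant cover was below that of the last 2 parts of Ppfia1, which were at 95.9% and 88.7% in the same library.

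In 20 kb bins, differences of at least 20 percentage points lay on the Ano1 side of Ccnd1 where the mutant was higher and past Ccnd1 where the wild type was. Of the 40 bins, 29 held an island in either list and 11 held none. The mutant was higher by at least 20 points in 3 bins and the wild type in 3 bins. Among 47083 such bins of the genome the shares were 8.63% and 11.3%, and as this contrast chose the stretch nothing is read from them. The 3 mutant bins adjoined each other from 151800001 to 151860000, with 11%, 0% and 17% in wild-type cells and 33%, 28% and 45% in mutant cells. The wild-type bins were from 152200001 to 152220000 (26% and 0%), from 152220001 to 152240000 (42% and 0%) and from 152300001 to 152320000 (26% and 0%).

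**Figure D3:**
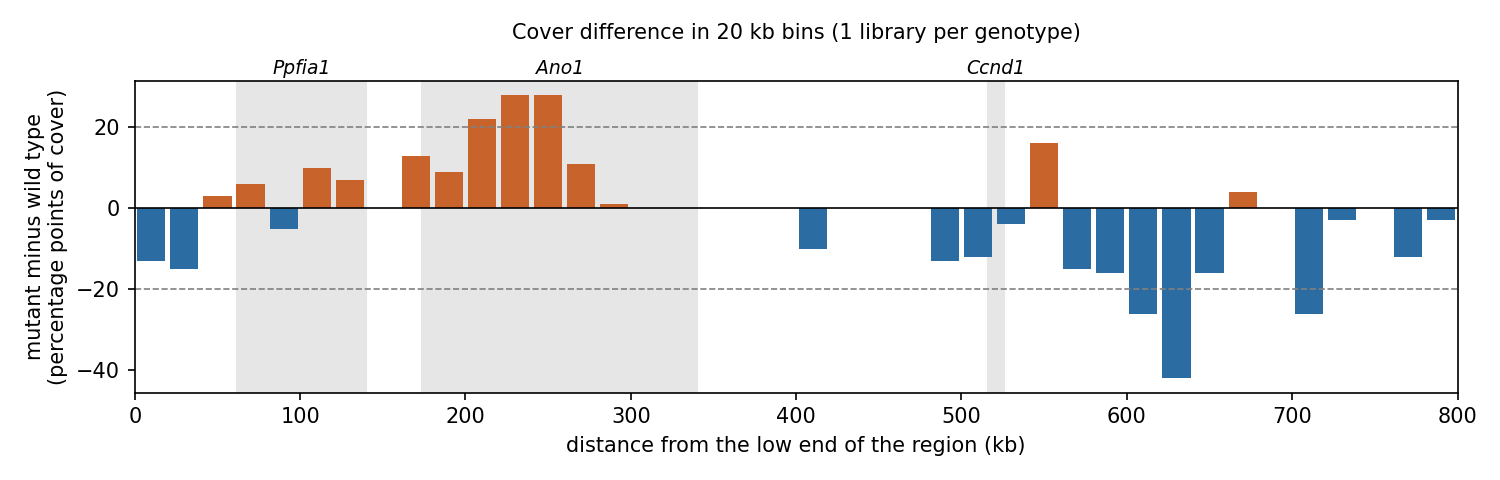
Difference in cover, mutant minus wild type in percentage points (y axis), for each 20 kb bin of the stretch, by distance from its low end in kb. Dashed lines mark 20 points; the 3 bins above the upper line lie in Ano1 and the 3 bins below the lower line lie past Ccnd1.

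The segment between Ano1 and Ccnd1 was mostly empty in both libraries. It measured 175.8 kb and was covered to 10.5% in wild-type cells and to 6.48% in mutant cells. From 151883001 to 152000800, 117.8 kb held no island in either list, and so did 83.2 kb from 152006401 to 152089600. By gene order Fgf3, Fgf4 and Fgf15, which encode fibroblast growth factors, and LTO1, a gene involved in ribosome biogenesis, lie in this segment. Placed by the offset, Fgf3, Fgf4 and Fgf15 were each at 0% in both libraries.

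The island nearest to Ccnd1 fell, by the offset, on its neighbour LTO1. In the wild type it ran from 152102801 to 152113000 (10.2 kb, 87.3rd percentile by score). In the mutant 2 islands lay within its bounds, 152103001 to 152106400 (3.40 kb) and 152107201 to 152111600 (4.40 kb), at the 53.2nd and 70.4th percentiles. By the offset, LTO1 was covered to 65.2% in wild-type cells and to 49.8% in mutant cells, and the cover began 1.80 kb and 2.00 kb past its start. The mutant islands were inside the wild-type island, so every mutant base here was shared.

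Ccnd1 itself carried no island. Its body, about 152115800 to 152125800 (10 kb), was covered to 0% in wild-type cells and to 0% in mutant cells. On the low side the nearest island ended 2.80 kb away in wild-type cells and 4.20 kb away in mutant cells, and on the high side the nearest began 13.2 kb and 16.0 kb away. Widening each gene segment by 5 kb at both ends brought the edge of the LTO1 islands into that of Ccnd1, which then stood at 11.0% and 4.00%. The other settings remove islands or join those within 2 kb, so none could have placed an island inside the body. As deposited, the 2 libraries gave no difference in islands over the Ccnd1 body, and a level below the calling limit could not be compared.

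Past Ccnd1 the wild type had more cover. This segment runs over 274.2 kb from 152125801 to 152400000. It was covered to 22.8% (62.6 kb, 16 islands) in wild-type cells and to 12.4% (34.0 kb, 11 islands) in mutant cells, 1.84 times as much in the wild type. Of the wild-type cover 42.5% was shared, and of the mutant cover 78.2%. As deposited this ratio was below 2, a size reached by 6.44% of 4686 tiles of the same length in favour of the wild type and by 4.14% in favour of the mutant. The tiles were counted on the lists as deposited, and as this contrast chose the stretch nothing is read from them. With islands of 2 kb or more the ratio was above 2, at 22.5% and 10.9%. A common lowest score removes islands from the mutant list alone, so it could only raise the ratio. It gave 22.8% and 9.99%.

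Most unmatched islands past Ccnd1 ranked low in both lists. Of the 16 wild-type islands of the segment, 8 (50%) had no counterpart, with 18.0% in the full wild-type list. Of the 11 mutant islands it was 3 (27.3%), with 25.7% in the full mutant list. As this contrast chose the stretch, nothing is read from the full-list shares. The 8 unmatched wild-type islands summed to 26.0 kb and ranked between the 0.343rd and the 50.1st percentile of their list, with a median of 14.0. The 8 with a counterpart had a median of 61.8. The 3 unmatched mutant islands summed to 5.20 kb. They ranked between the 1.23rd and the 49.1st percentile of their list, with a median of 3.03. The 8 mutant islands with a counterpart had a median of 63.6. From 152179401 to 152240400, a stretch of 61 kb, the mutant list held no island, and 4 wild-type islands of 15.2 kb in all lay wholly inside it. With the higher-scoring 50% of each list the segment was at 10.7% and 9.12%, a difference of -1.60 points in place of -10.4.

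Past Ccnd1, 3 places held matched islands that ranked high in both lists by summed score. The islands from 152266401 to 152272800 in wild-type cells and from 152266201 to 152273400 in mutant cells ranked at the 77.6th percentile of their lists in both cases. Those from 152322201 to 152326600 and from 152322601 to 152326400 ranked at the 74.2nd and 76.0th. Those from 152386601 to 152390600 and from 152386801 to 152390200 ranked at the 70.6th and 72.7th. In the gene table the part of the stretch farthest from Ppfia1 holds Tpcn2, which encodes a two-pore ion channel of lysosomes. By the offset, only the last of these 3 places lies in Tpcn2. The 32.5 kb of Tpcn2 inside the stretch was covered to 20.5% (6.66 kb) in wild-type cells and to 19.1% (6.20 kb) in mutant cells. The other genes listed past Ccnd1 are Gm46023, Gm45181 and Smim38, of 0.977, 2.58 and 2.30 kb. Most of the cover past Ccnd1, 62.6 kb in wild-type cells and 34.0 kb in mutant cells, thus lay outside listed genes.

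**Figure D4:**
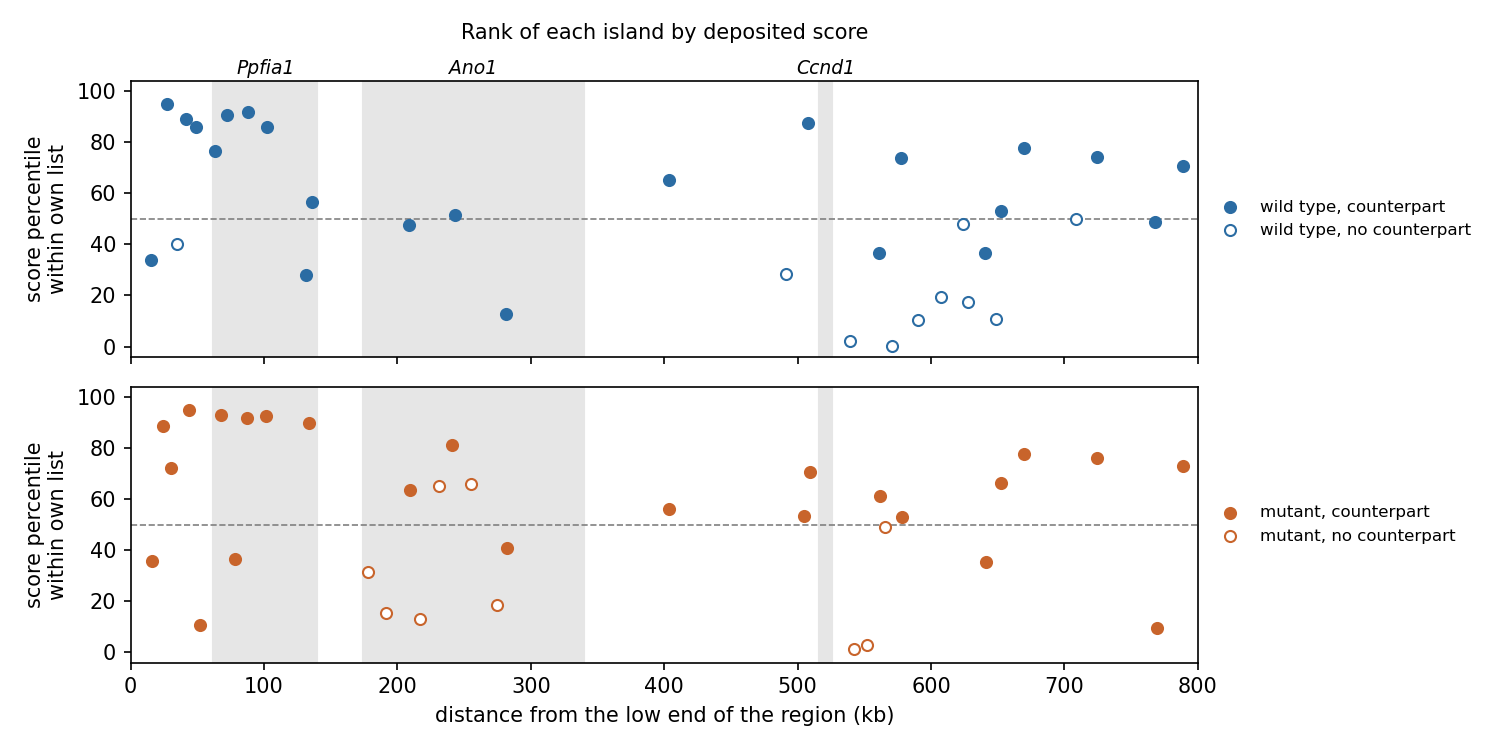
Percentile of each island's deposited score within its own list (y axis) by the island's distance from the low end of the stretch in kb, for the wild-type list above and the mutant list below; the dashed line is the middle of the list. Filled points over Ppfia1 reach 91.7 in wild-type cells and 93.0 in mutant cells, whereas 8 open wild-type points past Ccnd1 lie between 0.343 and 50.1.

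Before Ppfia1 the wild type had somewhat more cover. The 62 kb from 151600001 to 151662000 was covered to 51.9% in wild-type cells and to 44.8% in mutant cells, with 25.6 kb shared. The mutant minus wild-type difference was -7.10 points as deposited. It was -2.26 with the higher-scoring 50% of each list and -10.3 with islands within 2 kb joined. In the gene order this part holds the end of Shank2, a synaptic scaffold gene, and Cttn, which encodes the actin-binding protein cortactin. By the offset, Cttn was covered to 73.0% and 66.3%, and the 11.9 kb of Shank2 inside the stretch was at 0% in both. Of all islands of the stretch, the wild-type one with the highest score, at the 94.7th percentile, ran here from 151621201 to 151632600. The highest mutant one, from 151637601 to 151650200 (12.6 kb), was at the 94.9th.

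The files give no read totals. Solving the scores of single-window islands for depth gave a mean of 2.82 reads in each 200 bp window for wild-type and 3.11 for mutant cells, so the mutant library was the deeper by this measure. The mutant list was 1.20 times as long in islands and 0.967 times in covered length, with 297.8 Mb against 308.1 Mb. The mutant list, with the lower lowest score and the greater depth, had more cover over Ano1 and less past Ccnd1, and the part of depth in either was not tested.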

How the data were processed

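H3K36me3 ChIP-seq was deposited as 1 island list per genotype. Per the submitters' processing notes, the authors used Bowtie 1.0.0 to align reads and SICER 1.1 to call broad regions on build mm9. Window (200 bp) and gap (600 bp) come from the names of the deposited lists. The deposited island score is SICER's sum over windows and was used only to rank or filter within a list, to set a common lowest score and to solve depth. Island starts and ends, as deposited by the authors, are other values counted from 0 and are printed counted from 1. Use of the input libraries and removal of duplicate reads are not given in the sources used here.

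Cover was computed as the share of bases under islands, with scipy 1.17.1, pandas 2.3.3 and numpy 2.4.6 under Python 3.11.15, drawn with matplotlib 3.10.9, and tested on simulated data. Gene bounds on mm9 are the approximate ones given with the definition of the stretch. They differ by at most 2.07 kb from GRCm38 positions plus its offset, which were used for Fadd and, chosen after the data were seen, for neighbouring genes and starts, and were not checked against an mm9 annotation. The members and lists were chosen with earlier results of these data known. All 4 member genes were named. Alternatives were the upper 50% by score, islands of at least 2 kb, islands within 2 kb joined, equal covered length, widened genes, other bins, a 50% overlap and, added after the data were seen, a common lowest score.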

Additional observations from a re-analysis of the deposited data

How the results depend on the processing

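No paired analysis was possible because each genotype has 1 library and the results come from no test, and no replicate could be left out. Of 74 values under alternatives, 62 stayed within the binomial interval over windows or islands, or within 1.5 times of the count, 11 moved and 1 reversed. That interval takes neighbouring windows as independent and is wide for short segments, and some of the 62 still changed by over 1.5 times: before Ppfia1 the mutant minus wild-type difference was -7.10 points as deposited and -2.26 with the higher-scoring 50% of each list, between Ano1 and Ccnd1 it was -3.98 and -2.50, over the whole stretch -3.80 with a common lowest score, and over Ccnd1 widened by 5 kb -7.00 in place of 0. The 62 also include values that were fixed in advance. All those for the segment that holds Fadd, and those for Ccnd1 apart from the widened one, were 0. The settings remove islands or join those within 2 kb, so they could not have placed an island there. With the higher-scoring 50% of each list, the mutant minus wild-type difference was 0.90 points over the whole stretch (-1.82 as deposited), 8.43 over Ano1 (13.5) and -1.60 past Ccnd1 (-10.4), 1 bin was at least 20 points higher in the wild type, and 94.1% of wild-type islands had a counterpart. With a common lowest score, which removes mutant islands alone and could only lower both values, the Ano1 difference was 8.80 points and that past Ccnd1 -12.8. Bins at least 20 points higher in the mutant numbered 6 with bins of 10 kb and 1 with 40 kb. Those higher in the wild type numbered 5 when islands under 2 kb were removed, 5 when islands closer than 2 kb were joined, 9 with bins of 10 kb and 1 with 40 kb. Ano1 stayed higher in the mutant, and the part past Ccnd1 in the wild type, in each setting run. For the part past Ccnd1 the common lowest score could not have reversed this order. The stretch holds more bins where they are smaller, and for the other changes the cause was not tested. What depth limits was not tested, since the lists hold no read counts.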

Other observations

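Some short islands of the stretch ranked high by score per window. A short island needs a high score per window to reach the lowest score of its list, so this rank depends on length. A wild-type island of 0.80 kb past Ccnd1, from 152139001 to 152139800, was at the 2.33rd percentile by score. It was at the 95.1st by score per window and had no counterpart. Its score of 31.1 was just above the list's lowest, 30.3, so at its length a high score per window was needed for it to be listed. In the mutant, the islands from 152164601 to 152166000 (1.40 kb) and from 152240401 to 152241400 (1.00 kb) were at the 91.4th and 93.1st percentiles by score per window. Their scores were 50.9 and 38.7, with a lowest score of 22.6 in the mutant list. The first had no counterpart and the second lay wholly within wild-type cover.

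The island over Ano1 with the lowest density was in the mutant, from 151815001 to 151818800, at the 0.142nd percentile of its list by score per window. Past Ccnd1, the wild-type island from 152204801 to 152210000 was at the 0.365th. Neither had a counterpart. These islands were singled out after their values were seen.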
